A study of Mus musculus with 6 samples.

Results

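The interleukins, their receptors and their binding proteins were followed on 6 mRNA microarrays of mouse spleen. Members were the probes, control spots aside, whose RefSeq transcript belongs to a gene with a symbol made of Il and a number. Such symbols belong to 84 genes of the RefSeq table used here, and 81 of them had a probe on the array, out of 20659 genes given a symbol there. Il12b, Il11ra2 and Il4i1b matched no probe. The 81 genes had 97 probes, 66 genes with 1 probe and 15 with more. By role they comprised 38 ligands, 41 receptors and binding proteins, the enzyme Il4i1 and the antisense transcript Il1bos.

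The study asked how schisandrol A (SA), a lignan of Schisandra chinensis fruit, acts on mice whose immune system was suppressed with cyclophosphamide, a DNA-alkylating agent toxic to dividing lymphocytes. Both groups were male ICR mice, an outbred stock, aged 8 weeks, and cyclophosphamide (40 mg/kg) was injected intraperitoneally in both over 5 days. The MOD group (arrays 1, 2 and 3) then received distilled water by gavage, and the SA-H group (arrays 4, 5 and 6) received SA at 1000 mg/kg per day, for 4 weeks. The labels of the MOD arrays, however, give day 5 and those of the SA-H arrays day 28, so that label day and treatment cannot be told apart. The dose and duration of SA given here follow the sample records. They are not those of the paper, which gives its SA-H group a dose stated in moles and a shorter course of gavage. Mice without cyclophosphamide were not analysed here, and the labels do not say whether each array holds RNA of 1 mouse or of a pool, so p-values measure the spread between arrays, which may be technical. The extraction text of the labels names liver in places. On all 6 arrays 9 of 12 B cell markers were well above background, and so were 12 of 14 T cell markers. Of 8 liver markers 2 were tested, Serpina1a, which was well above background on all 6 arrays, and Cyp2e1, and Apoa1 and Ttr were so on no array. The sums of the tested liver markers, relative to the 75th percentile of the array, were 7.42 to 8.02 in MOD and 4.62 to 5.93 in SA-H.

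Interleukins are secreted signals between leukocytes and stromal cells, and most are made in small amounts by activated cells. Those of the IL-1 family bind receptors that act through the adaptor Myd88 on NF-kB, whereas most others bind paired receptor chains that activate Janus kinases and STAT factors. Receptor chains are shared: the common gamma chain (Il2rg) serves IL-2, IL-4, IL-7, IL-9, IL-15 and IL-21, and gp130 (Il6st) serves IL-6, IL-11 and IL-27. In the spleen these signals govern the survival of T and B cells, antibody formation and the response of macrophages to blood-borne microbes.

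Levels are given as the log2 of the processed signal relative to the 75th percentile of the same array, so that 0 is that percentile and 1 unit is a 2-fold difference. That percentile lay between 599 and 840 on the MOD arrays and between 220 and 868 on the SA-H arrays. The scanner software calls a spot well above background or not, and the share so called was 43.1 to 49.4% on arrays 1, 3, 4 and 6 and stood at 72.2% on MOD array 2 and 73.9% on SA-H array 5. Arrays 1, 3 and 6 were scanned on a first day, arrays 2 and 4 on a second, and array 5 was scanned alone on a later day. On the first day arrays 1 and 3 shared a slide scan and array 6 had its own. A difference within that day is therefore also one between slide scans. Arrays 2 and 4 shared a slide scan. With scan day as a block, array 5 has no other array of its day and does not enter the difference between the groups. A level belongs to a probe and is compared only between arrays, not between genes. In whole spleen, fewer cells of a type and less RNA per cell cannot be told apart.

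Receptor genes were detected more widely than ligand genes. A gene was tested where the 3 arrays of at least 1 group all had a probe well above background, which held for 25 of the 41 receptors and binding proteins and for 8 of the 38 ligands, besides Il4i1. Of these 34 genes, 28 were well above background on all 6 arrays, comprising 22 receptors or binding proteins, 5 ligands and Il4i1. The other 6 were well above background on 2 arrays of the other group: Il17rd, Il7 and Il27 on 2 MOD arrays, and Il21, Il1r2 and Il27ra on 2 SA-H arrays. Since they could pass through the group where they are brighter, counts are also given without them.

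**Figure D1:**
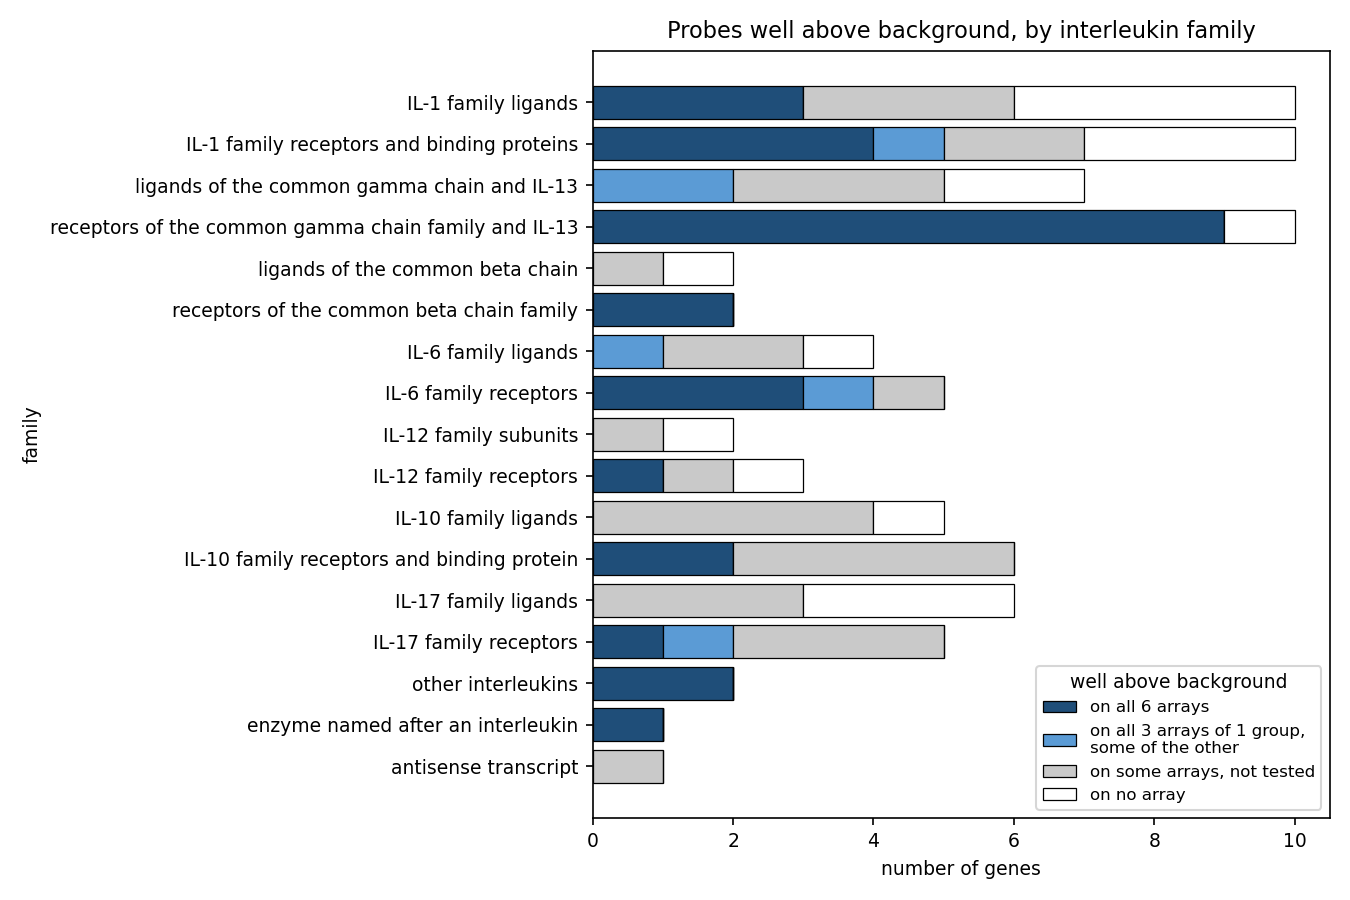
Number of interleukin genes (x axis) per family (y axis) by how many of the 6 arrays had a probe well above background. Of the receptors of the common gamma chain family and IL-13, 9 of 10 were well above background on all 6 arrays, and 0 of 6 IL-17 family ligands were tested.

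The 47 genes that were not tested comprised 18 that were well above background on no array and 29 that were so on some arrays. Those on no array were the T helper cell ligands Il5, Il9, Il13, Il17a and Il31, the IL-12 family subunit Il23a and its receptor chain Il23r, the ligands Il17c, Il20 and Il25, the IL-1 family genes Il1f5, Il1f6, Il1f8, Il1f10, Il1rl2, Il1rapl1 and Il1rapl2, and the receptor chain Il13ra1. For these genes the arrays set only an upper bound in both groups, and no fold change is given. Among the 29 were Il2, the T cell growth factor, Il4, Il6, Il10, Il12a, Il15, Il1a and Il1rn. They also comprised Il3, Il11, Il17b, Il17d, Il17f, Il19, Il22, Il24 and Il1f9, the receptor genes Il12rb2, Il17ra, Il17rb, Il17re, Il18rap, Il1rap, Il20ra, Il20rb, Il22ra1, Il22ra2 and Il31ra, and the antisense transcript Il1bos.

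Dim genes were detected mainly on 2 arrays, 1 of each group. The untested genes with a probe well above background numbered 0, 25 and 2 in MOD and 3, 27 and 2 in SA-H. Of the 29 genes, 17 were well above background on arrays 2 and 5 and on no other, and 23 on array 2 or 5 and on no other, the arrays with the largest share of spots called in this way. Il6, the acute-phase interleukin, was well above background on array 2 alone, and its level ran from -5.51 to -4.75 over the 6 arrays. Il10, an inhibitory ligand, was so on arrays 2 and 5, with levels from -5.45 to -3.56. Il17ra, the chain shared by the IL-17 receptors, came closest to the limit, well above background on arrays 2, 3, 5 and 6, at -2.20, -1.50 and -1.70 in MOD and -2.51, -0.91 and -1.59 in SA-H.

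No interleukin gene passed an adjusted p of 0.05 in limma, and nor did any other gene. At that limit 0 of 14474 tested genes and unnamed targets (0.0%) were called, against 3377 at an unadjusted p under 0.05. The analysis of variance that the study's methods name also called 0 at an adjusted p of 0.05, with 2828 at an unadjusted p under 0.05. Differences below are therefore described as higher or lower in SA-H with their adjusted p from limma, and none is a call. Where 3 values are given for a group, they are those of arrays 1, 2 and 3 for MOD and of arrays 4, 5 and 6 for SA-H, in that order.

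The number of interleukin genes with a small unadjusted p lay near that of all genes. At an unadjusted p under 0.05, 9 of the 34 tested genes differed (26.5%), beside 23.3% of all tested genes. They were 5 higher in SA-H (14.7%, beside 10.8%), namely Il1b, Il7, Il17rd, Il6st and Il21r, and 4 lower (11.8%, beside 12.5%), namely Il21, Il1rl1, Il15ra and Il4ra. Without the 6 genes that missed the background limit on an array, 6 of 28 differed (21.4%), beside 21.1% of the 12140 genes and targets chosen in the same way. Of these 6, 3 were higher (beside 9.62%) and 3 lower (beside 11.5%). With a fold change of at least 2 as well, 3 were higher (8.82%, beside 7.74% of all tested) and 2 lower (5.88%, beside 5.03%). Scaling by the median, which put the median of all genes at -0.36, gave 1 higher and 5 lower, beside 1006 and 2239 of all 14474 tested. The p-values of that fit hardly rest on each gene's own spread. The value table that the authors deposited gave 16 higher and 1 lower, beside 2358 and 2368 of all tested. Without SA-H array 6, the genes with an unadjusted p under 0.05 were Il1b, Il7 and Il21, beside 3192 of all tested. By role, 2 ligands were higher and 1 lower, and 3 receptors were higher and 3 lower.

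Levels of 10 of the 34 genes (29.4%) did not overlap between the groups, beside 32.7% of all tested. In 6 of them every SA-H array was above every MOD array (17.6%, beside 11.9% of all tested), namely Il1b, Il7, Il17rd, Il6st, Il13ra2 and Il11ra1. In the other 4 every SA-H array was below (11.8%, beside 20.7%), namely Il21, Il1rl1, Il18 and Il1r1. Of the 28 genes well above background throughout, 7 did not overlap (beside 30.7%), 4 of them higher (beside 11.4%) and 3 lower (beside 19.3%). The median log2 fold change was 0.17 over the 34 genes and -0.04 over all tested, with 21 genes higher (background 47.7% of all tested) and 13 lower in SA-H. The median of the 34 was 0.05 without MOD array 2 and 0.33 without MOD array 3. Over the 28 genes well above background on all 6 arrays it was also 0.17, beside -0.02.

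**Figure D2:**
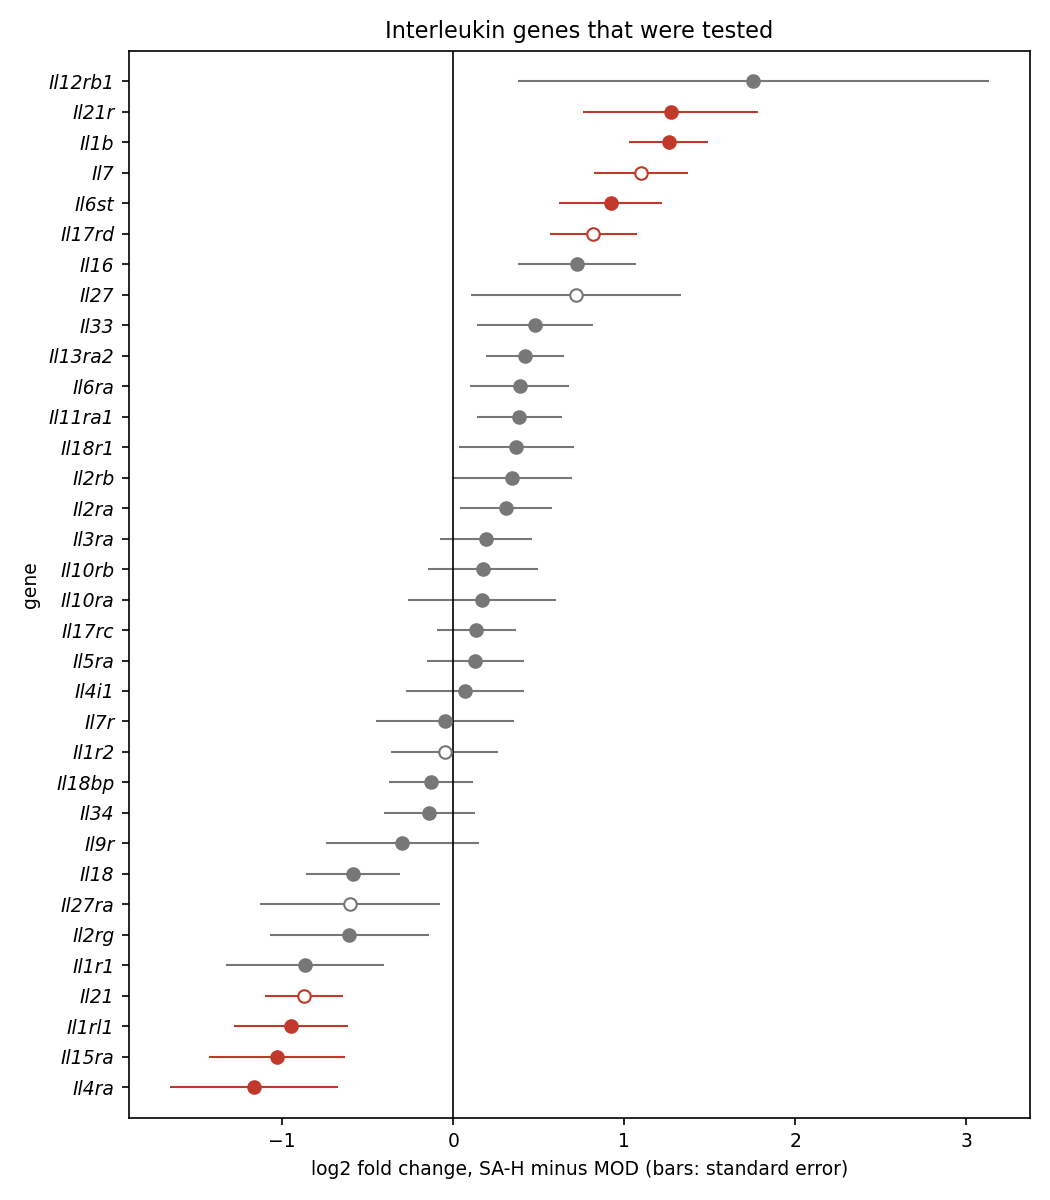
Log2 fold change, SA-H minus MOD (x axis), of the 34 tested interleukin genes (y axis) with its standard error. Red marks an unadjusted p under 0.05 and open points genes not well above background on all 6 arrays; Il12rb1 has the widest error, 1.38.

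Il1b, Il6st and Il1rl1 were the genes that combined an unadjusted p under 0.05, groups without overlap and a signal well above background on all 6 arrays. For this reason the bases before their transcription start are shown, 5′ to 3′ on the strand of the gene, from RefSeq on GRCm38.p6. Each run is 250 bases and ends at the base before the start. They were searched for TATAAA on the strand of the gene, for the AP-1 motif TGANTCA and the STAT motif TTCNNNGAA on both strands, and for the NF-kB motif on both strands. Capitals mark the only match, TATAAA in Il1b, 31 to 26 bases before the listed start. The Il1b run is chr2:129371140-129371389 on the minus strand, and the annotated gene reaches base 129371164, inside this run. For Il1rl1 the promoter table holds a pair of starts on the plus strand, both downstream of the start of the annotated gene at base 40404864 of chromosome 1, with runs chr1:40429320-40429569 and chr1:40439379-40439628, and the Il6st run is chr13:112463820-112464069 on the plus strand.
Il1b: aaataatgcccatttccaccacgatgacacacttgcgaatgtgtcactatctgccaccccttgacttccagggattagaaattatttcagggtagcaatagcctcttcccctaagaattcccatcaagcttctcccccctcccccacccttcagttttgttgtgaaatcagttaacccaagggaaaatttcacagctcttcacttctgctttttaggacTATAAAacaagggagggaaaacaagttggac
Il1rl1, first listed start: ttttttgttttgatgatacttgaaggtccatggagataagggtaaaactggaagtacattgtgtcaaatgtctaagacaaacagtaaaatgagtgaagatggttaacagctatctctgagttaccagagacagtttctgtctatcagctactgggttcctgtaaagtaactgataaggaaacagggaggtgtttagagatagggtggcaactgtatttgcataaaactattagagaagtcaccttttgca
Il1rl1, second listed start: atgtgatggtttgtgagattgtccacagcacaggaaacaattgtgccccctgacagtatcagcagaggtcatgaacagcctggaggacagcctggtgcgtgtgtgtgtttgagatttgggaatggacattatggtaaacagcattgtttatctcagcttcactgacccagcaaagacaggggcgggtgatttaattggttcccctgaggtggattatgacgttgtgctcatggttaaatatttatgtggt
Il6st: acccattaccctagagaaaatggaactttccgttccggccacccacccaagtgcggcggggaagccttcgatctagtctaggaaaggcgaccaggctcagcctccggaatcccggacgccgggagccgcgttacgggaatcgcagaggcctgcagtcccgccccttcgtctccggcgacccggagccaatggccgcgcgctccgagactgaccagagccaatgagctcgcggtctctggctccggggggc

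The runs differ in base composition. G and C made up 44.4% of the Il1b run, which holds 2 CG pairs, and 37.6% and 46.4% of the Il1rl1 runs, which hold 0 and 3. The Il6st run was 66.0% G and C with 26 CG pairs. TATAAA occurred in 7.59% of 32851 mouse promoters of this length, TGANTCA in 6.75%, TTCNNNGAA in 7.02% and the NF-kB motif in 7.25%. Of the 82 promoters of 67 member genes that had one, 11, 14, 9 and 6 held them, which is 13.4% for TATAAA and 17.1% for TGANTCA. Letters in a window do not show binding, and their absence says nothing of the factor.

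Among the IL-1 family ligands, Il1b was higher in SA-H. Il1b, which encodes the fever-inducing cytokine IL-1 beta, made mainly by monocytes, macrophages and neutrophils, stood at 0.96, 1.15 and 1.00 in MOD and at 2.13, 2.52 and 2.23 in SA-H. The 3 MOD arrays lay close together and all 3 SA-H arrays lay above them. The difference was 1.26 on the log2 scale (SE 0.23, 2.39-fold, limma adjusted p = 0.079). It was 1.25 within the first scan day, between slide scans, and 0.98 within the second, between 1 array of each group. With scan day as a block, where array 5 does not enter the difference, the limma adjusted p of Il1b was 0.048. That fit called 7.43% of all tested genes. Il1b was then the only interleukin gene below 0.05.

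Il1b was measured in whole spleen, so markers of the cells that make it are given beside it. Of 12 macrophage markers 9 were tested, 1 higher and 2 lower at an unadjusted p under 0.05, and their summed level relative to the 75th percentile was 73.1 to 88.4 in MOD and 66.3 to 95.3 in SA-H. All 11 neutrophil markers on the array were tested, 1 higher and 1 lower, with sums of 280 to 379 and 285 to 866. Both sums overlapped between the groups. Of all tested genes 10.8% were higher and 12.5% lower at an unadjusted p under 0.05 in limma. The part of these cells in the Il1b difference was not tested.

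The other tested ligands of the family were Il18 and Il33. Il18, which drives interferon gamma from T and NK cells, was at 2.25, 2.06 and 2.33 in MOD and 1.16, 1.90 and 1.81 in SA-H. Every SA-H array was below every MOD array, with array 4 the lowest, and the difference was -0.59 (SE 0.28, limma adjusted p = 0.25). In the value table of the authors Il18 was in the opposite direction, at 0.74 (limma adjusted p = 0.014). Il33, an alarm signal of stromal cells, differed by 0.48 (SE 0.34). Il1rn, the natural antagonist of the IL-1 receptor, was not tested, since its probe was well above background on arrays 2 and 5 only. Its levels were -3.46, -4.45 and -3.94 in MOD and -4.70, -4.92 and -5.26 in SA-H.

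Of the IL-1 family receptors, Il1rl1 was lower in SA-H. Il1rl1 encodes ST2, the receptor of IL-33, known from mast cells, basophils, regulatory T cells and type 2 lymphoid cells. The gene was at 1.93, 1.78 and 2.01 in MOD and at 1.54, 0.33 and 1.00 in SA-H. The MOD arrays lay close together, all 3 SA-H arrays lay below them, and SA-H array 4 was nearest to them. The difference was -0.95 (SE 0.34, 1.93-fold, limma adjusted p = 0.16), but -0.24 within the second scan day, which holds 1 array of each group, against -0.97 within the first. With scan day as a block it was -0.66 and its unadjusted p was no longer under 0.05 (limma adjusted p = 0.18).

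Il1rl1 had 2 further probes, and its value rests on 1 probe. A further probe for the same transcript was well above background on no array, at -7.48 to -4.32. The other, for another transcript, was well above background on arrays 2 and 5 only. Its levels were -4.09, -3.70 and -4.35 in MOD and -4.90, -5.33 and -5.42 in SA-H, and values near background give no order. Of 7 mast cell and basophil markers, 4 were tested and 1 was lower, beside 12.5% of all tested genes. This was Cpa3, at -1.67 (SE 0.45, limma adjusted p = 0.108), well above background on only 1 SA-H array. Cpa3 passed the background limit through MOD, its brighter group, so its p is a description and no support. Sums of these markers were 1.39 to 1.75 in MOD and 0.957 to 1.65 in SA-H. Ms4a2, which encodes a chain of the IgE receptor, was well above background on no array. All 5 tested fat markers of 7 were lower at an unadjusted p under 0.05 (median -2.47), beside 12.5% of all tested genes. Of the 5, only Fabp4, at -0.80, was well above background on all 6 arrays. Cidec, Car3, Adipoq and Cfd passed the background limit through MOD, their brighter group, so their p-values are a description and no support. Sums of the fat markers were 8.73 to 13.3 in MOD and 4.02 to 5.51 in SA-H, and Lep was well above background on no array. Of 11 erythroid markers tested, 4 were lower and 1 higher (beside 12.5% and 10.8% of all tested genes), with a median of -0.68. Sums of the erythroid markers were 542 to 662 in MOD and 517 to 1465 in SA-H. The part of these cells in the differences of Il1rl1 and of the other genes lower in SA-H was not tested.

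The remaining IL-1 family receptors had no unadjusted p under 0.05. Il1r1, the signaling receptor of IL-1, differed by -0.87 (SE 0.46, limma adjusted p = 0.29) with groups that did not overlap, but by 0.58 in the value table of the authors (limma adjusted p = 0.047). SA-H array 4 was far below the others for Il1r1, at -2.12 against -0.55 and -0.52 on arrays 5 and 6. Il18r1, the ligand-binding chain for IL-18, differed by 0.37, the decoy receptor Il1r2 by -0.05 and the secreted inhibitor Il18bp by -0.13. Il1r2, Il1r1, Il1rl2, Il1rl1, Il18r1 and Il18rap are neighbours on chromosome 1, and the 4 of them that were tested differed in both directions.

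**Figure D3:**
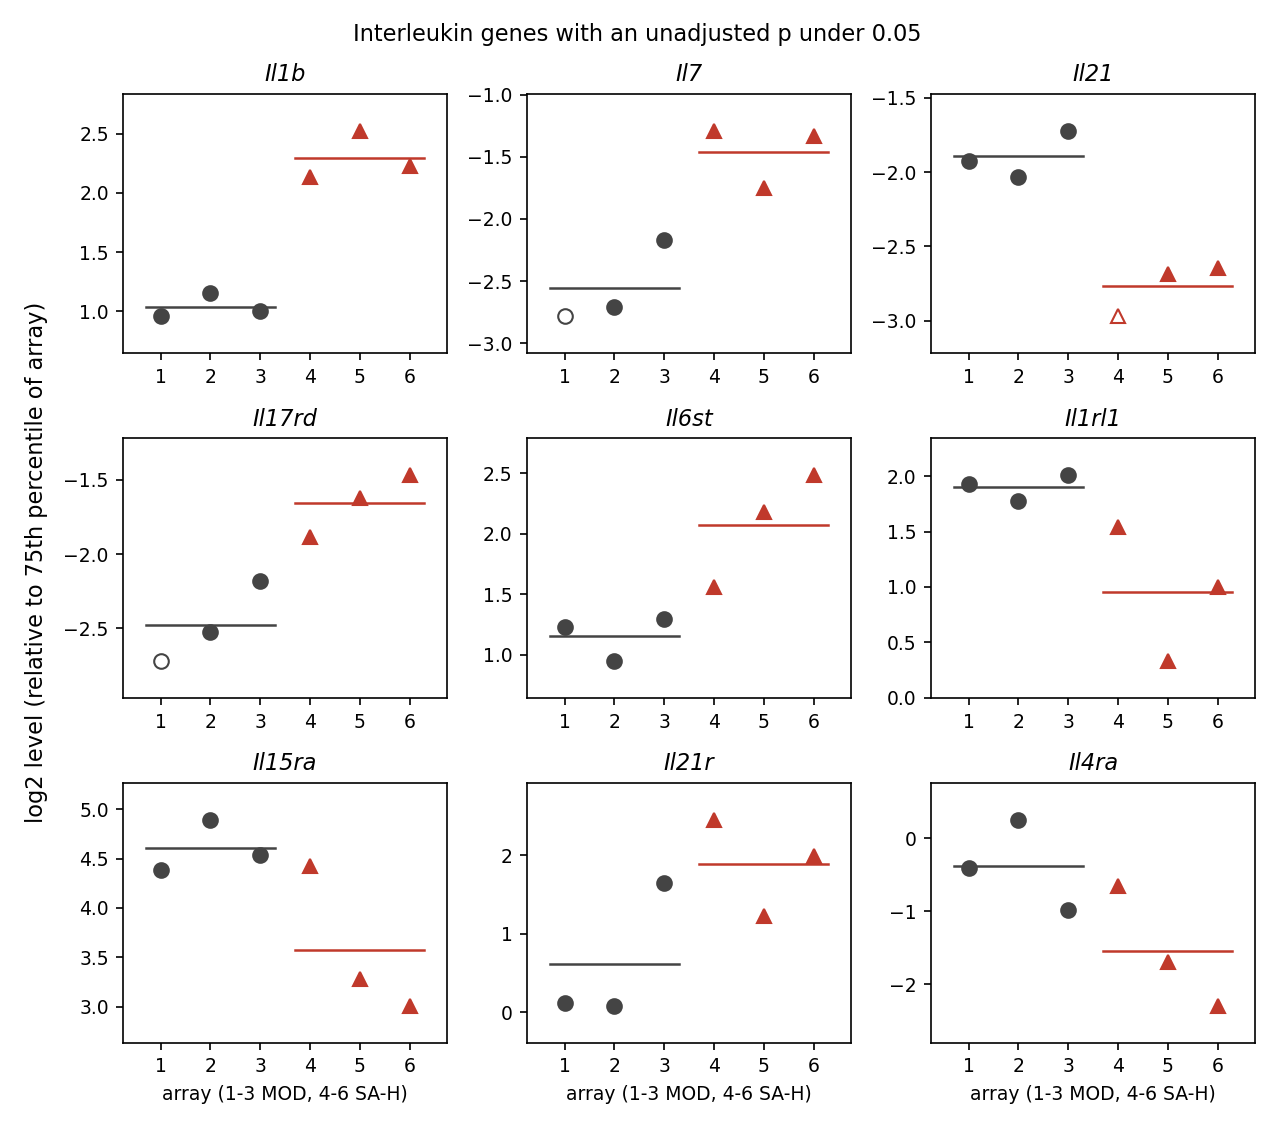
Log2 level relative to the 75th percentile of the array (y axis) on arrays 1 to 3 (MOD, circles) and 4 to 6 (SA-H, triangles) for the 9 genes with an unadjusted p under 0.05; lines are group means and open symbols arrays not well above background. The groups do not overlap for Il1b, Il7, Il21, Il17rd, Il6st and Il1rl1, and overlap for Il15ra, Il21r and Il4ra.

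Of the ligands of the common gamma chain, Il7 was higher and Il21 lower in SA-H, both at dim signal. Each was tested because its brighter group passed the background limit, so its difference and p are a description and no support. Il7, the stromal survival factor of lymphocytes, was at -2.78, -2.71 and -2.17 in MOD and -1.29, -1.75 and -1.33 in SA-H. All SA-H arrays lay above all MOD arrays, and MOD array 1 was not well above background. The difference was 1.10 (SE 0.28, limma adjusted p = 0.099), with 1.15 and 1.42 within the first and second scan days, but -0.15 in the value table of the authors. Il21, a product of follicular helper T cells that drives B cells to make antibody, was at -1.92, -2.03 and -1.72 in MOD and -2.97, -2.68 and -2.64 in SA-H. The SA-H arrays lay below the MOD arrays, and array 4 was not well above background. The difference was -0.87 (SE 0.23, limma adjusted p = 0.106), but -0.22 with another background correction, normexp (limma adjusted p = 0.64), and 0.85 in that value table.

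The receptors of this family differed in both directions. Il21r, the receptor of IL-21 on B, T and NK cells, was at 0.11, 0.09 and 1.65 in MOD and 2.45, 1.22 and 1.99 in SA-H. MOD array 3 lay above SA-H array 5, so the groups overlapped, and the difference was 1.27 (SE 0.51, 2.41-fold, limma adjusted p = 0.20). Il15ra, which presents IL-15 to T and NK cells, was at 4.38, 4.89 and 4.54 in MOD and 4.43, 3.28 and 3.01 in SA-H. SA-H array 4 lay among the MOD arrays and arrays 5 and 6 below them, with a difference of -1.03 (SE 0.40, 2.04-fold, limma adjusted p = 0.19). A further Il15ra probe, for another transcript, was at -3.98 to -2.94 and well above background on 3 arrays, so that the gene's value rests on 1 probe.

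Il4ra, the chain shared by the receptors of IL-4 and IL-13, gave opposite directions with its 2 probes. Its brighter probe was at -0.40, 0.25 and -0.98 in MOD and -0.65, -1.69 and -2.29 in SA-H, a difference of -1.17 (SE 0.49, limma adjusted p = 0.21). Its dimmer probe, for the same transcript, was at -5.30, -4.71 and -1.72 in MOD and -1.19, -1.63 and -1.88 in SA-H, where MOD arrays 1 and 2 stood apart. That probe differed by 2.34 (limma fit of all kept probes, adjusted p = 0.17), and the mean of both by 0.59. The direction of Il4ra is therefore not settled by these arrays.

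The other receptors of the family had no unadjusted p under 0.05. Il2rg differed by -0.61 (SE 0.46), with SA-H array 4 at -2.55 and the others between -1.02 and -0.73. Il2ra and Il2rb, the further chains of the IL-2 receptor, differed by 0.31 and 0.34. Il7r, the receptor of IL-7 on T cells and B cell precursors, was at 0.08, -0.32 and 0.89 in MOD and -0.42, 0.38 and 0.54 in SA-H, a difference of -0.05 (SE 0.40). Il9r differed by -0.30 and Il13ra2, a decoy receptor of IL-13, by 0.42 with groups that did not overlap. Of the NK cell markers, 5 of 8 were tested, and in SA-H 2 were higher (unadjusted p under 0.05 in limma, beside 10.8% of all tested genes). The higher ones were Gzma and Prf1, and Ncr1, Eomes and Gzmb differed by 0.96, 0.32 and -0.06. Sums of the NK cell markers were 13.9 to 15.3 in MOD and 19.7 to 36.6 in SA-H, without overlap. For T cell markers, 0 of 13 tested had an unadjusted p under 0.05 in limma, beside 23.3% of all tested genes. Of 11 B cell markers tested, 2 were higher and 0 lower, with a median of -0.11. The higher ones were Spib at 0.80 and Fcer2a at 1.06, the latter tested through SA-H, its brighter group. Sums of the B cell markers were 145 to 191 in MOD and 168 to 202 in SA-H, with overlap. The part of NK, T and B cells in the values of Il2rb, Il15ra and Il21r was not tested.

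**Figure D4:**
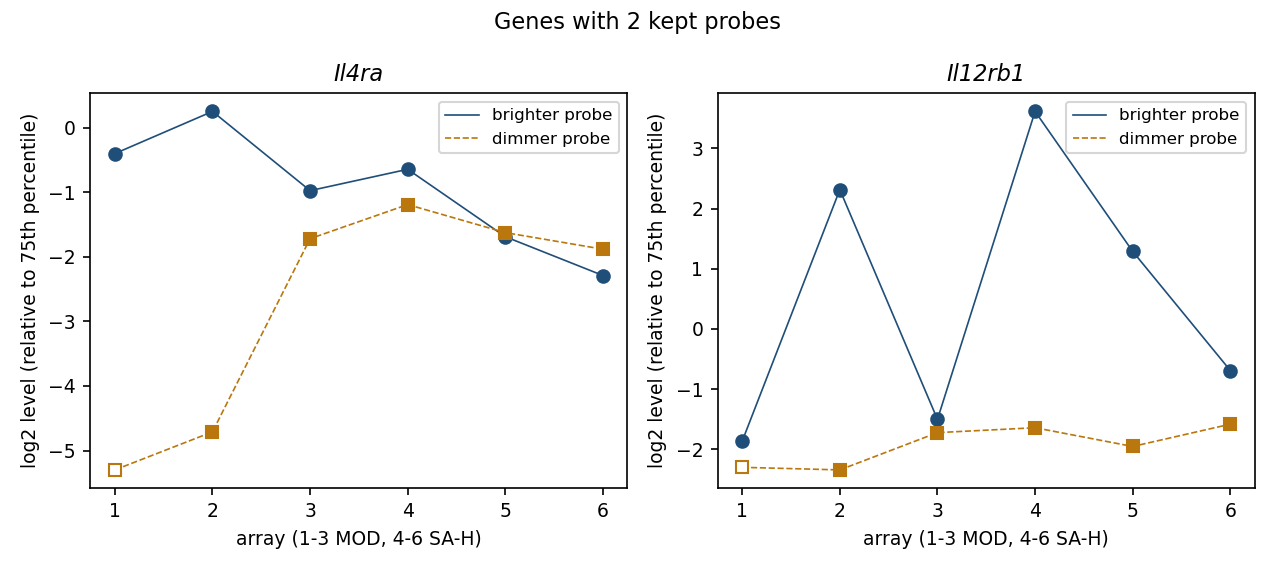
Log2 level relative to the 75th percentile of the array (y axis) on each array (x axis; 1 to 3 MOD, 4 to 6 SA-H) for the genes with 2 probes that passed the background limit, Il4ra and Il12rb1; open symbols mark arrays not well above background. The Il4ra probes differ in direction, and the brighter Il12rb1 probe varies between -1.87 and 3.61 whereas the dimmer stays between -2.34 and -1.58.

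In the IL-6 family the shared receptor chain Il6st was higher in SA-H. Il6st encodes gp130, which signals for IL-6, IL-11 and IL-27, and was at 1.23, 0.95 and 1.29 in MOD and 1.56, 2.18 and 2.48 in SA-H. The groups did not overlap, and SA-H array 4 was nearest to the MOD arrays. The difference was 0.92 (SE 0.30, 1.89-fold, limma adjusted p = 0.14), with 1.22 and 0.62 within the first and second scan days. It was 0.60 with scaling by the median (limma adjusted p = 0.49) and 0.08 in the value table of the authors (limma adjusted p = 0.69), both without an unadjusted p under 0.05. Il6ra, the ligand-binding chain for IL-6, was at 1.52, 0.65 and 1.26 in MOD and 1.63, 1.36 and 1.61 in SA-H, a difference of 0.39 (SE 0.29) with overlapping groups.

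The other members of the family were close between the groups or variable. Il11ra1 differed by 0.39 without overlap, a value that may hold signal of the near-identical gene Il11ra2. Il27, a regulator of T helper cells made by myeloid cells, differed by 0.72 (SE 0.61), with MOD array 2 at -0.94 and MOD arrays 1 and 3 at -3.04 and -3.11. Its receptor chain Il27ra differed by -0.60 (SE 0.53), with SA-H array 4 at -3.56 and the other 5 arrays between -1.91 and -1.42, and by 0.75 in the value table of the authors (limma adjusted p = 0.023). Of 15 receptor subunits and ligands of these families that carry other names, 10 were tested, with 2 higher and 0 lower (unadjusted p under 0.05), and their median was 0.35. They were Cntfr, a gp130 partner that binds ciliary neurotrophic factor, at 2.95 (SE 0.78, limma adjusted p = 0.106), and Osmr, the oncostatin M receptor, at 0.60 (SE 0.23, limma adjusted p = 0.18). Ebi3, the partner subunit of Il27, differed by 0.56 and Csf2ra by 0.75.

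Il12rb1, the receptor chain shared by IL-12 and IL-23, had the widest spread of the tested interleukin genes. It was at -1.87, 2.31 and -1.50 in MOD and at 3.61, 1.29 and -0.69 in SA-H. Arrays 2, 4 and 5 were high and arrays 1, 3 and 6 low in both groups, which is the split between the later scan days and the first. The mean was -1.35 on the first scan day and 2.40 on the later days, a difference of 3.76, and 28 of the 14474 tested (0.193%) had one as large. Between the groups the difference was 1.75 (SE 1.38, limma adjusted p = 0.45), and 0.40 for the dimmer probe. With scan day as a block it was 1.12, with an unadjusted p under 0.05 (limma adjusted p = 0.055). Il27 also had every later array above every array of the first day, and Il18bp and Il2rg every later array below, whereas 9.38% and 9.09% of all tested genes did so.

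**Figure D5:**
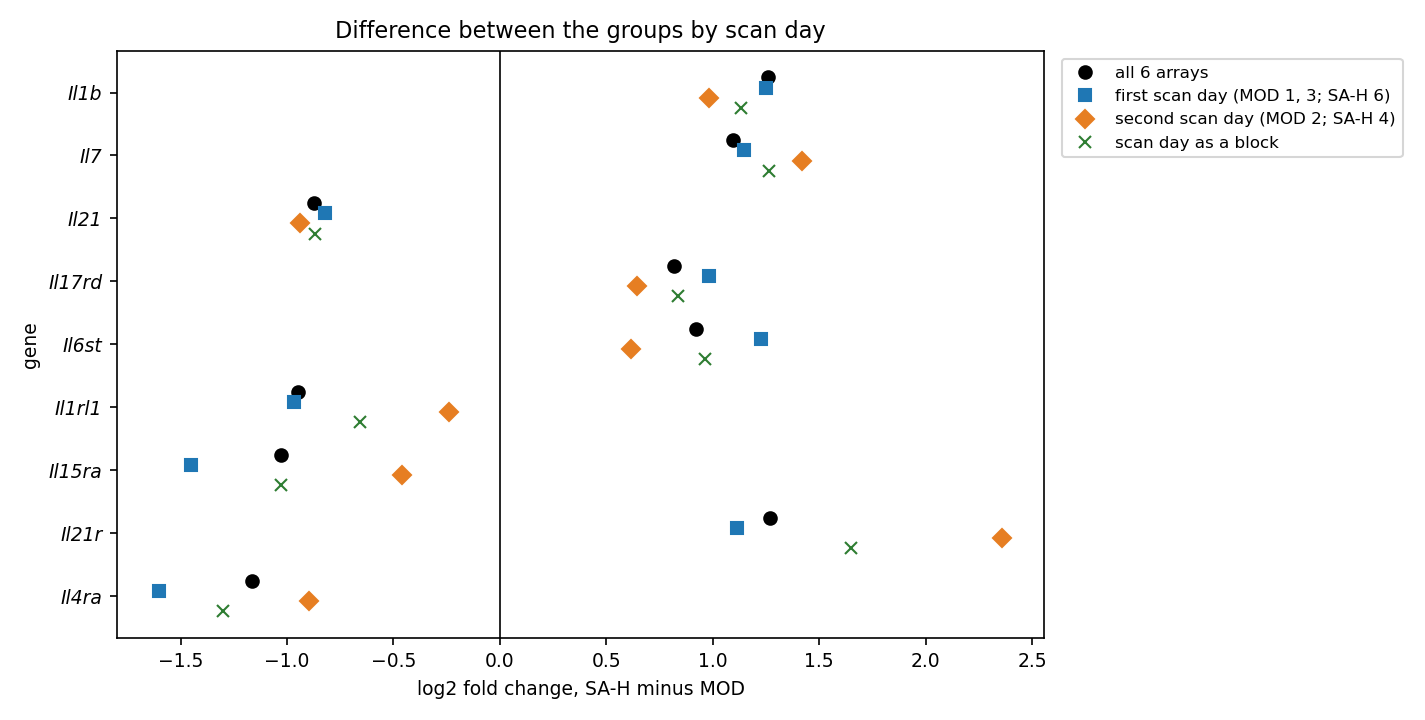
Log2 fold change, SA-H minus MOD (x axis), of the 9 genes with an unadjusted p under 0.05 (y axis), over all 6 arrays, within the first scan day (MOD 1 and 3, SA-H 6), within the second (MOD 2, SA-H 4) and with scan day as a block. Each gene kept its direction in all of them, and Il1rl1 ran from -0.97 to -0.24. The genes were chosen on these same 6 arrays, so the kept direction is a description and no support.

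In the IL-17 family, Il17rd was higher in SA-H at dim signal, and was tested because SA-H, its brighter group, passed the background limit. Il17rd, a receptor-like protein also known as Sef that restrains growth factor signaling, was at -2.72, -2.53 and -2.18 in MOD and -1.88, -1.62 and -1.47 in SA-H. The groups did not overlap, and MOD array 1 was not well above background. The difference was 0.82 (SE 0.25, limma adjusted p = 0.13), with 0.98 and 0.64 within the first and second scan days. Il17rc, a chain of the receptor for IL-17A, differed by 0.13 (SE 0.23).

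The remaining tested genes had no unadjusted p under 0.05. Il16, a chemoattractant of CD4+ cells, differed by 0.72 (SE 0.34, limma adjusted p = 0.25), and Il34, a ligand of the receptor Csf1r, by -0.14. Il10ra and Il10rb, the chains of the IL-10 receptor, differed by 0.17 each, and Il3ra and Il5ra, which pair with the common beta chain, by 0.19 and 0.13. Il4i1, a secreted enzyme that breaks down aromatic amino acids, was at 4.01, 3.74 and 4.91 in MOD and 4.34, 4.09 and 4.43 in SA-H. The groups overlapped, with a difference of 0.07 (SE 0.34), and the probe may also take signal of the copy Il4i1b.

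Genes that act downstream of these receptors, and those that mature IL-1 beta and IL-18, are given by list, beside the 23.3% of all tested genes with an unadjusted p under 0.05 in either direction. With the receptor subunits under other names, 3 genes of these lists had such a p, against 10 with scan day as a block and 18 in the value table of the authors. Of all 14474 tested, 3377 had such a p, against 4438 with scan day as a block and 4726 in that value table. The lists held 10, 10, 10, 10 and 5 tested genes. Of the Janus kinases and STAT factors, 10 of 11 were tested and 0 had an unadjusted p under 0.05 in limma (median 0.03). Stat2, a factor of interferon signaling, differed by 0.52 (SE 0.29), Tyk2 by -0.90 (SE 0.66), Stat5b by 1.16 (SE 0.91) and Jak2 by 0.30 (SE 0.30). Of 12 inhibitors of cytokine signaling 10 were tested, again with 0 under 0.05 and a median near 0 (-0.00). Pias1, which restrains STAT factors, differed by -0.53 (SE 0.26), and the SOCS family genes Cish, Socs6 and Socs2 by 0.45, -0.42 and -0.62. Tyk2 and Socs6 passed the background limit through MOD, their brighter group.

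Of 12 genes of IL-1 and IL-17 receptor signaling 10 were tested, with a median of -0.43. Traf6, the ubiquitin ligase on the path to NF-kB, was lower at -1.32 (SE 0.54, limma adjusted p = 0.20), with 1 SA-H array well above background. It was tested because MOD, its brighter group, passed the background limit, so its difference and p are a description and no support. Tollip, Irak1 and Myd88 differed by -0.61, -0.49 and -0.74. Of 7 genes that mature IL-1 beta and IL-18 by inflammasomes, 5 were tested and 0 had an unadjusted p under 0.05 in limma, with a median of -0.27. Aim2, a DNA sensor, differed by 0.84 (SE 0.40), Casp1, the protease that cuts both cytokines, by -0.38 (SE 0.34), and Pycard and Casp4 by -0.21 and -0.35. Nlrp3 and Nlrc4 were too dim to test.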

How the data were processed

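Total RNA of 6 spleens or pools was hybridized with Cy3 on Agilent mouse arrays, 1 array per sample. The authors' intensity values (processed signal, from Agilent Feature Extraction 11.0.1.1 per the file headers) were background-subtracted and not normalized between arrays. The deposited well-above-background and outlier flags were used as they stand. The authors' value table holds log2 values, made by steps not given in the sources used here, and served as an alternative.

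Here each array's log2 processed signal was set relative to its 75th percentile over 43020 spots apart from controls. Spots flagged as outliers were left out, spots of a probe were averaged, and probes measured on all 6 arrays were kept if all 3 arrays of a group were well above background. Symbols came from RefSeq (GRCm38.p6) by accession for 27234 of 39429 probes (69.1%); 11005 of the 14474 tested had one. The brightest kept probe stood for a gene. SA-H was compared with MOD by limma 3.58.1 under R 4.3.3 (with the package data.table, version 1.17.8), with Benjamini-Hochberg adjustment over all tested. Python 3.11.15, numpy 2.4.6, pandas 2.3.3 and matplotlib 3.10.9 did the rest. The fit was tested on simulated data.

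Alternatives were scaling by the median, quantile normalization, normexp (offset 50, on the median signal, since the files hold no mean signal), other filters and probe choices, the value table, scan day, slide scan, analysis of variance, and leaving out each array. Values on every array are given for tested members with an unadjusted p under 0.05, for the 8 brightest members and for genes whose kept probes differ in sign. Other tested members are named with their fold change, and up to 4 genes of each pathway list by smallest p. Array values outside that rule (Il6, Il10, Il17ra, Il1rn, Il7r, Il12rb1 and single arrays) were chosen after they were seen. The members and lists were chosen with earlier results of these data known. The number of arrays limits the precision.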

Additional observations from a re-analysis of the deposited data

How the results depend on the processing

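No paired analysis was possible because the groups share no replicate number. Leaving out 1 array moved the interleukin genes with an unadjusted p under 0.05 to between 2 and 5 higher and between 1 and 5 lower. Of all tested genes, between 906 and 1824 were then higher and between 823 and 2091 lower. The pathway genes moved to between 1 and 8, and all genes at an adjusted p under 0.05 to between 0 and 22. All genes past both a 2-fold limit and an unadjusted p of 0.05 moved to between 1228 and 2466. The median of the interleukin genes ran from 0.05 (without MOD array 2) to 0.33 (without MOD array 3). Il1b, Il7 and Il21 kept an unadjusted p under 0.05 without any 1 array, and Il6st lost it without array 2 or 6, Il17rd without array 1 or 6, Il1rl1 without array 1, 3, 5 or 6, Il21r without array 1, 2, 4 or 6, Il4ra without array 1, 2, 5 or 6 and Il15ra without any array but 4. For Il7, Il21 and Il17rd this is a description and no support. They were tested through their brighter group, and leaving out an array kept that choice of genes.

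Scaling by the median left 1 gene higher (Il12rb1) and 5 lower at an unadjusted p under 0.05, beside 1006 and 2239 of all tested. It left 1 (Il4ra) at an adjusted p under 0.05. It moved the median of all genes from -0.04 to -0.36 and that of the interleukin genes to -0.15, called 1094 genes at an adjusted p under 0.05 and 3158 by fold change, 31.6% of the latter higher against 60.6%, and left 5 pathway genes in place of 3. Il1b was then at 0.94 and its unadjusted p no longer under 0.05 (limma adjusted p = 0.25). In that fit Il1b and Il21r had standard errors of 0.499 and 0.505, against 0.229 and 0.512 in the main fit. P-values of the median-scaled fit, and so its 1094 calls, hardly rest on each gene's own spread. The kept probes of Il4ra also went in opposite directions. Quantile normalization called 4 genes at an adjusted p under 0.05, normexp 210, the filter on all 6 arrays 1 and scan day as a block 1075. The pathway genes numbered 6, 5, 10 and 6 under quantile normalization, normexp, scan day as a block and slide scan as a random block. Of all tested genes 3422, 3509, 4438 and 3886 had an unadjusted p under 0.05 there. The filter on all 6 arrays left 3 interleukin genes higher, beside 1262 of 12152 tested, and scan day as a block left 1 (Il1b) at an adjusted p under 0.05. The analysis of variance left 1 lower, beside 1766 of all tested, and 1135 genes by fold change. Within the second scan day the median of the interleukin genes was 0.37, and within scan days no count could be had.

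The authors' value table gave 16 interleukin genes higher and 1 lower, 7 at an adjusted p under 0.05, 1779 of all genes, 18 pathway genes and a median of 0.51. At an unadjusted p under 0.05 it gave 2358 higher and 2368 lower of all tested genes. Il7 was at -0.15, Il21 at 0.85 and Il4ra at -0.33 there. With the scanner values, Il4ra was at 0.59 as the mean of its kept probes. The cause of these changes was not tested. Of the 25 tested genes with an unadjusted p of at least 0.05, 9 had 1 direction in every setting. The split of calls by fold change was 52.6, 69.3, 68.7, 66.2 and 23.3% higher under quantile normalization, normexp, no filter, the filter on all 6 arrays and the value table. Signal near background limits Il7, Il21, Il17rd and the 47 untested genes.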

Other observations

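The authors' value table did not follow the scanner values of the same arrays closely for interleukins or for other genes. Over 12140 probes, with each probe centred on its mean over the 6 arrays, the columns for arrays 1 to 6 correlated with the scanner levels of their own array at 0.48, 0.40, -0.28, 0.14, 0.03 and 0.37. Only 3 of the 6 columns correlated best with their own array, and the columns for arrays 3, 4 and 5 correlated best with the scanner levels of arrays 4, 5 and 6, at 0.31, 0.26 and 0.26. All columns had the same median, 5.34. In this table Il1b differed by 0.38 (limma adjusted p = 0.104) and Il1rl1 by -1.80 (limma adjusted p = 0.036). These correlations are across probes, which are not independent, and what the columns hold was not settled.

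The median share of G and C was 51.2% over 35 promoters of tested interleukin genes and 49.2% over 47 promoters of those not tested, beside 52.4% over all 32851. A share of at least 55% was reached by 34.3%, 25.5% and 41.0% of them. These differences were not tested.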
